A study of Mus musculus with 6 samples.

Results

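Wnt5a, Wnt6 and Wnt10a, which encode secreted Wnt ligands, were followed together with Fzd5, which encodes a Frizzled receptor for Wnt proteins, and Ptch1, which encodes the receptor for Hedgehog proteins. The 5 genes were chosen by name with their measured values in both contrasts, PMA against control and replicate number 1 against numbers 2 and 3, already in view. Each was found through the RefSeq accession in the name of its probe set, among 909 genes named in this way on the array. Each of the 5 genes had 1 probe set, so the rule that takes the probe set with the highest mean over the 6 arrays had no choice to make. The probe sets of Wnt5a (NM_009524.2_psr1_s_at) and Fzd5 (NM_001042659.1_psr1_s_at) carry the suffix s, which marks a probe set that can bind several transcripts. Those of Wnt6 (NM_009526.3_psr1_at), Wnt10a (NM_009518.1_psr1_at) and Ptch1 (NM_008957.2_psr1_at) do not.

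RNA came from MLE-15, a line of distal lung epithelium derived from mouse tumours that the SV40 large T antigen had caused. PMA, or phorbol 12-myristate 13-acetate, is a diacylglycerol mimic and strong activator of protein kinase C. It was given to the cells of 3 arrays, at 10 nM for 24 h by the series' design text, and 3 arrays of unstimulated cells served as controls. The study asked whether sialyltransferases, sulfotransferases and mucins are present and are induced by PMA, and the Wnt and Hedgehog genes were on the same array. Each group holds the replicate numbers 1, 2 and 3, and what a number stands for is not stated. Titles of the number 1 arrays open with MLE-15PMA and MLE-15CTL, and those of numbers 2 and 3 with MLE15PMA or MLE15CTL and a letter, A or B. No label ties an array to its own culture. P-values therefore cover only the spread among these arrays, which may be technical. Both groups share 1 tumour-derived line, and the values stand for that line and not for lung tissue.

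All levels below are log2 values from RMA, the probe-set summary that the authors deposited, and 1 unit is a doubling of signal. Array medians were 5.64 to 5.71. The 2 arrays of number 1, PMA 1 and control 1, stood apart from the other 4 arrays over many probe sets, and the PMA differences of the 5 genes are therefore given within numbers as well. Of 13 listed lung epithelial markers, the surfactant protein genes Sftpa1 and Sftpd were the 2 measured. Sftpa1 stood at 3.82, 3.30 and 3.36 in PMA 1, 2 and 3, against 3.89, 3.39 and 3.29 in control 1, 2 and 3, below the lower quartile of each array (4.32 to 4.43). Sftpd stood at 5.48, 5.38 and 5.29 in PMA 1, 2 and 3, against 5.50, 5.48 and 5.28 in control 1, 2 and 3, below each array's median.

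Wnt proteins are lipid-modified, secreted glycoproteins that bind Frizzled receptors on neighbouring cells. Binding can stabilise β-catenin, which then drives transcription with TCF/LEF factors, or can act through β-catenin-independent routes on cell shape and movement. Hedgehog proteins bind Patched receptors and thereby free Smoothened to signal, and Ptch1 is itself a transcriptional target of that signal. Both pathways pattern the branching airways of the developing lung, and heparan sulfate proteoglycans help to carry both kinds of ligand.

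Wnt6 and Wnt10a lie next to each other on mouse chromosome 1, with 0 annotated genes between them in RefSeq's annotation of GRCm38.p6. Fzd5 lies on the same chromosome, with 162 annotated genes between it and Wnt6, while Ptch1 is on chromosome 13 and Wnt5a on chromosome 14. Promoter sequences from RefSeq (GRCm38.p6) matched 3 of the 5 genes, Wnt6, Fzd5 and Ptch1, and not Wnt5a and Wnt10a. All the promoter sequences found are shown, and no link between them and the measured values was tested. Each holds 300 bases around the start, read 5′ to 3′ on the gene's strand. Capitals mark every match to the GC box GGGCGG on either strand, where neighbouring matches can overlap.
Wnt6 promoter, chr1:74771642-74771941, plus strand: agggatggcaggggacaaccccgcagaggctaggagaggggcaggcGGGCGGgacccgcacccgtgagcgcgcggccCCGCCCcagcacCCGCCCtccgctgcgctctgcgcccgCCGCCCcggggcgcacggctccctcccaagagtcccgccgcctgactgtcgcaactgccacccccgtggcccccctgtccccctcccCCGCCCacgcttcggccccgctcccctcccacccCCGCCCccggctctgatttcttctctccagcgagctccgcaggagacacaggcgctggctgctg
Fzd5 promoter, chr1:64737701-64738000, minus strand: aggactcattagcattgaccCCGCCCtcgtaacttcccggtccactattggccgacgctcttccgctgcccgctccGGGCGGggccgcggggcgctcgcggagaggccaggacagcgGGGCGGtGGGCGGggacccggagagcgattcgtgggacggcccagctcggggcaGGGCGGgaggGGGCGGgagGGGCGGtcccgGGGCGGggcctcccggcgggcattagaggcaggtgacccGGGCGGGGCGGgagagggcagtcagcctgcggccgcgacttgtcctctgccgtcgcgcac
Ptch1 promoter, chr13:63565686-63565985, minus strand: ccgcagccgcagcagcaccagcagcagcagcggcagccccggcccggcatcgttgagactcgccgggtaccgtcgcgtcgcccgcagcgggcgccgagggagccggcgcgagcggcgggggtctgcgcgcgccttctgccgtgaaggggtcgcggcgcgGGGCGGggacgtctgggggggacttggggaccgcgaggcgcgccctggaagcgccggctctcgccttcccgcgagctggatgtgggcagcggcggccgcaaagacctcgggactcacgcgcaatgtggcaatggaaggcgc

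The GC box occurred 6 times in the Wnt6 promoter, 10 times in that of Fzd5 and once in that of Ptch1, and 35.7% of 32851 RefSeq promoters of the same length held at least 1. The GC content was 76.7% for Wnt6, 75.7% for Fzd5 and 76.3% for Ptch1, against a median of 52.7% over all promoters. No window held the AP-1 motif TGANTCA, the motif bound by the factors that phorbol esters activate, which occurs on either strand in 7.81% of all promoters. The TCF/LEF motif CTTTGA (16% of all promoters) and the GLI motif GGGTGGTC (0.807%) were absent from the 3 windows as well. The motifs were chosen after the values were known, and a missing match says only that these letters are not in the window.

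None of the 5 genes was called as changed by PMA. The comparison asks which transcripts differ after the phorbol ester. With limma, adjusted by Benjamini-Hochberg over all 1246 probe sets, 0 of the 5 passed and 0% of all probe sets did (4, or 0.321%, at an unadjusted p under 0.05, none of them a member), with an adjusted p = 0.999 for each gene. With a block for the number, 0 of the 5 passed as well, and 0% of all probe sets did (42, or 3.37%, at an unadjusted p under 0.05, none of them a member). A further fit set only number 1 apart from the rest, and 0% of all probe sets passed. There 44 probe sets had an unadjusted p under 0.05, Ptch1 among them. When a single array was left out, so that the numbers no longer balanced, the unblocked differences of the 3 ligands and Fzd5 changed sign without 3 of the 6 arrays each, and that of Wnt5a ran from -1.05 without control 1 to 1.08 without PMA 1. The median absolute PMA difference over all probe sets was 0.050 log2 units.

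Among the ligands, Wnt5a, which often acts through β-catenin-independent routes and shapes the distal lung during development, stood at 5.73, 8.77 and 9.03 in PMA 1, 2 and 3, against 5.66, 8.85 and 8.94 in control 1, 2 and 3. In both groups the array of number 1 was far below the other 2, and the groups overlapped. The PMA minus control difference of Wnt5a was 0.069, -0.081 and 0.090 log2 units in numbers 1, 2 and 3, a mean of 0.026. Without the block its SE was 1.29, because the spread between numbers enters the error, and with the block it was 0.069, with a 95% interval of -0.13 to 0.18.

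Wnt6, a ligand made by many epithelia that usually acts through β-catenin, stood at 8.02, 5.92 and 5.52 in PMA 1, 2 and 3, against 8.31, 5.65 and 5.45 in control 1, 2 and 3. Here the number 1 array was the highest of each group. The PMA difference was -0.29 in number 1 and 0.28 and 0.074 in numbers 2 and 3, so its sign was not shared. The mean was 0.021, with a blocked 95% interval of -0.21 to 0.25, against a mean of 0.17 over numbers 2 and 3 alone.

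Wnt10a, a ligand known for its part in teeth, hair and other skin appendages, stood at 8.17, 5.48 and 5.41 in PMA 1, 2 and 3, against 8.36, 5.40 and 5.57 in control 1, 2 and 3. As for Wnt6, number 1 was the highest array of each group. Its PMA differences were -0.19, 0.084 and -0.16 in numbers 1, 2 and 3, with a mean of -0.091 and a blocked 95% interval of -0.26 to 0.082. Over numbers 2 and 3 alone the mean was -0.040.

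Of the receptors, Fzd5 stood at 7.92, 9.94 and 10.02 in PMA 1, 2 and 3, against 7.84, 9.88 and 10.00 in control 1, 2 and 3. It followed Wnt5a, with number 1 the lowest array of each group. Its PMA differences were all above 0, at 0.075, 0.053 and 0.015, with a mean of 0.048 and a blocked 95% interval of -0.098 to 0.19. A difference above 0 in all 3 numbers was found in 10.4% of all probe sets, and one of the same sign in all 3 in 23.1%. Fzd5 and Ptch1 were the 2 of the 5 genes that kept 1 sign.

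Ptch1, the Hedgehog receptor, stood at 6.37, 6.29 and 6.24 in PMA 1, 2 and 3, against 6.13, 6.22 and 6.09 in control 1, 2 and 3. All 3 PMA arrays lay above all 3 control arrays, which 1.61% of all probe sets showed in this direction and 1.77% in the other. The group means were 6.30 ± 0.070 for PMA and 6.15 ± 0.066 for control (SD, n = 3 arrays each). The difference was 0.25, 0.072 and 0.14 in numbers 1, 2 and 3, a mean of 0.15 (SE 0.069), and 0.11 over numbers 2 and 3 alone. Ptch1 was taken up with its PMA difference already known, so these values are a description. Its blocked 95% interval was -0.00042 to 0.31, and the blocked intervals of all 5 genes excluded a doubling in either direction. Without the block the 95% interval of Ptch1 was -0.019 to 0.33. The fit that set only number 1 apart gave 9.3e-05 to 0.31, which narrowly excluded 0, while the other intervals held it. The unadjusted p by limma was 0.0720 without the block, 0.0505 with it and 0.0499 with only number 1 set apart. In that last fit the adjusted p was 0.995, so Ptch1 did not pass there either. Since the difference was known beforehand, nothing is read from these p-values. Because values of RMA are compressed for dim probe sets and no background probe sets were at hand, the true change of a dim transcript may be larger than these differences. Ptch1 itself lay above the median of each array, at percentiles from 57.1 in control 1 to 60.4 in PMA 1.

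**Figure D1:**
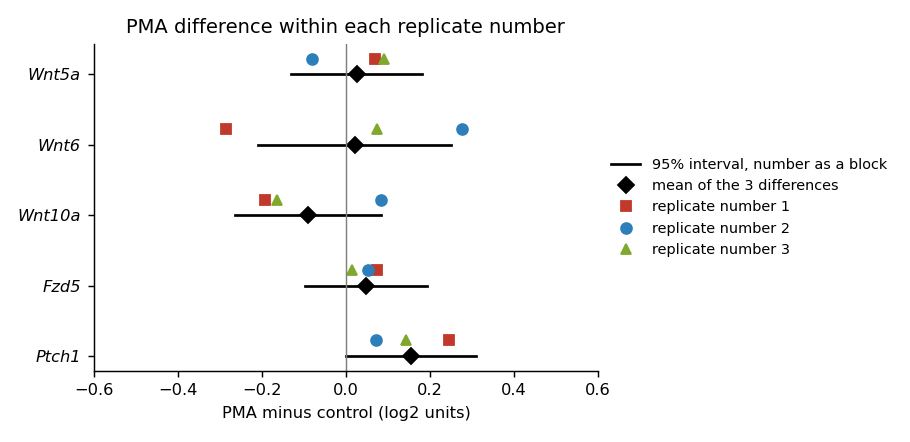
PMA minus control difference (x axis, log2 units) of each gene, with coloured points for replicate numbers 1, 2 and 3, diamonds for their mean and bars for the 95% interval of limma with the number as a block. The means lie between -0.091 for Wnt10a and 0.15 for Ptch1, and each bar crosses 0.

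Whether the PMA difference depended on the number was tested with an interaction term. The PMA difference in number 1 minus that in numbers 2 and 3 was -0.46 (SE 0.24) for Wnt6, -0.15 for Wnt10a, 0.14 for Ptch1, 0.064 for Wnt5a and 0.041 for Fzd5, whose value was -0.0053 with the array medians centred. After Benjamini-Hochberg adjustment limma passed 0 of the 5, with adjusted p = 0.743 for Wnt6, against 0.0803% of all probe sets. The 0.0803% is 1 probe set, uc009kma.1_psr1_at, which has no gene name here and was chosen after its value was seen. At an unadjusted p under 0.05 it was 0 of the 5, against 5.62%.

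The larger differences among these genes lay between the replicate numbers. The 5 genes were put together with this contrast known, so its values are a description and carry no test. Wnt5a averaged 5.69 on the 2 number 1 arrays and 8.90 on the other 4, which is -3.20 log2 units, or a 9.21-fold lower signal in number 1. The number 1 arrays differed from each other by 0.069 and the other 4 spanned 0.26, while the gap between the 2 sets of arrays was 3.04. Of all 1246 probe sets, Wnt5a had the 4th largest absolute difference.

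Fzd5 was also lower in number 1, averaging 7.88 there and 9.96 in numbers 2 and 3, a difference of -2.08, or 4.23-fold. Its number 1 arrays differed by 0.075, and the other 4 spanned 0.14. The difference was -2.06 among PMA arrays and -2.10 among control arrays, and that of Wnt5a was -3.17 and -3.24, so both arms gave nearly the same value.

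Wnt10a and Wnt6 went the other way. Wnt10a averaged 8.27 in number 1 and 5.47 in numbers 2 and 3, a difference of 2.80, or a 6.97-fold higher signal in number 1, with 2.73 among PMA arrays and 2.88 among control arrays. Wnt6 averaged 8.17 in number 1 and 5.64 in numbers 2 and 3, a difference of 2.53, or 5.78-fold, with 2.30 among PMA arrays and 2.76 among control arrays. Wnt6 was the member that varied most within numbers 2 and 3, spanning 0.47, with PMA 2 the highest. So the neighbouring genes Wnt6 and Wnt10a were higher on the number 1 arrays on which Wnt5a and Fzd5 were lower.

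Ptch1 averaged 6.25 in number 1 and 6.21 in numbers 2 and 3, a difference of 0.041, with 0.11 among PMA arrays and -0.028 among control arrays. PMA 1 lay above the range of numbers 2 and 3 and control 1 within it, and among the 5 genes it alone differed by less between numbers than between PMA and control. In all, 4 of the 5 genes differed between number 1 and the rest by over 1 log2 unit, against 9.23% of all probe sets, with 2 genes higher (4.74%) and 2 lower (4.49%), and the same 4 differed by over 2, against 3.13%. Since the genes were chosen with this contrast in view, nothing is read from those shares. In a bulk sample, fewer cells of a type and less RNA per cell cannot be told apart.

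**Figure D2:**
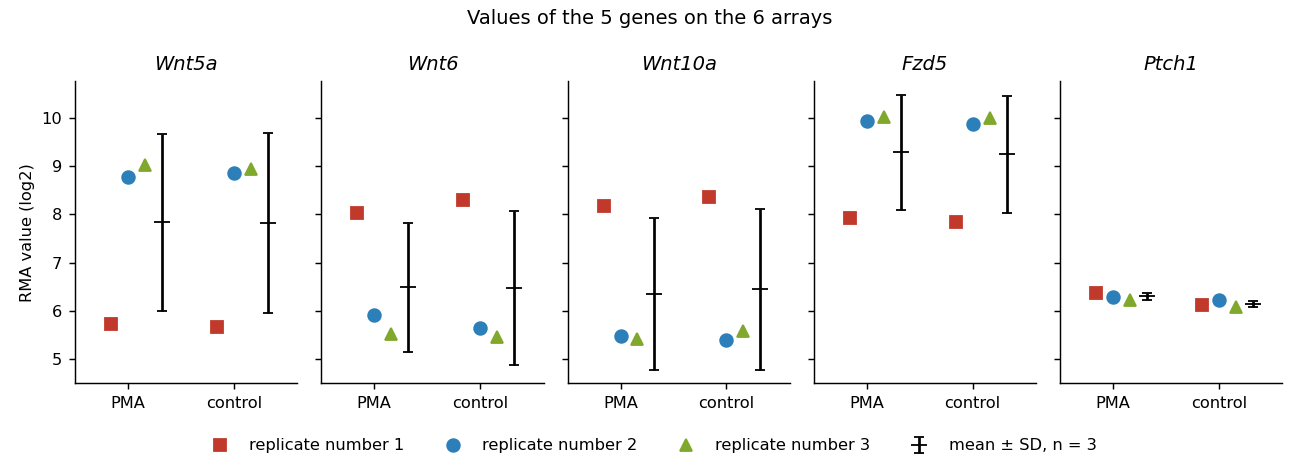
RMA value (y axis, log2) of each gene on the 6 arrays, with PMA left of control in each panel, points marked by replicate number, and the group mean ± SD (n = 3) beside them. Number 1 lies far below numbers 2 and 3 for Wnt5a and Fzd5 and far above them for Wnt6 and Wnt10a, in both groups, while the 6 values of Ptch1 lie between 6.09 and 6.37. Heights of different genes come from different probe sets and are not to be compared.

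**Figure D3:**
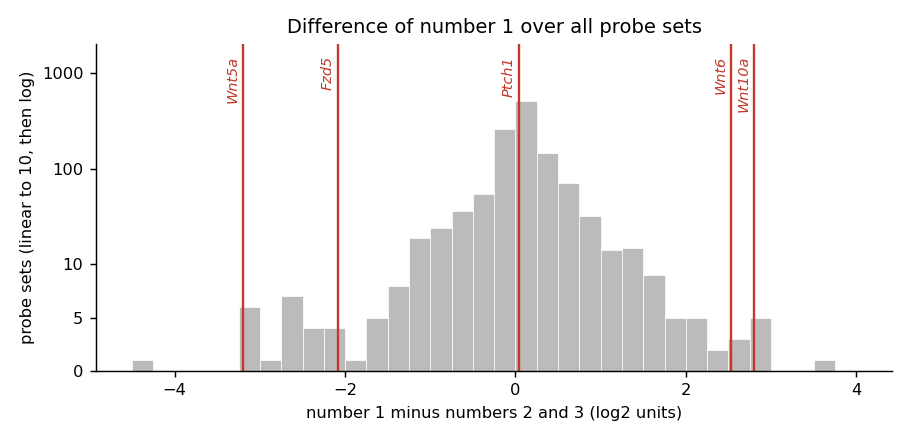
Number of probe sets (y axis, linear to 10 and logarithmic above) by their difference of number 1 minus numbers 2 and 3 (x axis, log2 units), with lines at the 5 genes. Wnt5a at -3.20, Fzd5 at -2.08, Wnt6 at 2.53 and Wnt10a at 2.80 lie in the tails, and Ptch1 at 0.041 lies in the centre.

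The rest of the Wnt family was measured on the same arrays. All 19 Wnt ligands had a probe set, and the PMA mean was the higher for 11 and the lower for 8. The median difference was 0.022 log2 units, beside a median of 0.0045 over all 909 named genes. Of the 19, 0 passed the adjusted limma test, with 0 at an unadjusted p under 0.05, with and without the block. Of the 16 ligands other than the 3 members, the largest PMA differences were those of Wnt11, a ligand of β-catenin-independent signalling, at 0.0998 (SE 0.094), and Wnt8b at 0.088 (SE 0.059). The blocked 95% interval lay within 0.58 log2 units of 0 for all 19.

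Between the numbers, 6 of those 16 other ligands passed the adjusted limma test, 4 higher in number 1 (27.5% of all probe sets were) and 2 lower (14.1%). Wnt4 rose most, by 1.20 (SE 0.073, adjusted p = 3.09e-07 by limma), a ligand known for kidney and gonad development. It stood at 8.42 and 8.36 in PMA 1 and control 1, against 7.12 to 7.29 in the other 4 arrays. Wnt5b, the closest relative of Wnt5a, was lower in number 1 by a difference of -0.59 (SE 0.083, adjusted p = 0.000164 by limma). The others that passed, named after their values were seen, were Wnt7a at 0.50, Wnt9a at 0.46 and Wnt16 at 0.21 upward, and Wnt7b, a ligand of the lung epithelium, at -0.46. Wnt16 no longer passed with the array medians centred (adjusted p = 0.0923) or with quantile normalization (adjusted p = 0.0665). None of the 16 reached the size of the 3 members' differences. The 3 were chosen with this contrast in view, so nothing is read from that.

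Of 19 listed Wnt receptors and co-receptors, 9 were measured, all of them Frizzled genes. The PMA mean was the higher for 6 and the lower for 3, the median difference was 0.048, and 0 of the 9 passed the adjusted limma test (0 at an unadjusted p under 0.05, with and without the block). Fzd10 at 0.11 (SE 0.094) and Fzd1 at 0.0998 (SE 0.31) had the largest PMA differences of the 8 besides Fzd5. Between the numbers, 4 of those 8 were higher in number 1 (27.5% of all probe sets were) and 1 lower (14.1%) by the same test. Fzd2 rose by 1.37 (SE 0.096, adjusted p = 8.92e-07 by limma), Fzd7 by 1.29 (SE 0.075, adjusted p = 2.25e-07 by limma), and Fzd1 by 0.76. Fzd3 at 0.43 and Fzd8 at -0.25, named after their values were seen, were the others. Fzd5 at -2.08 was the only Frizzled gene of the 9 that was lower by over 1 log2 unit in number 1. On those arrays Fzd2 and Fzd7 were higher by over 1. Fzd5 was chosen with this contrast in view, so nothing is read from its place among the 9. With quantile normalization Fzd6, likewise singled out after its value was seen, also passed, at -0.19 (adjusted p = 0.0490 by limma).

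**Figure D4:**
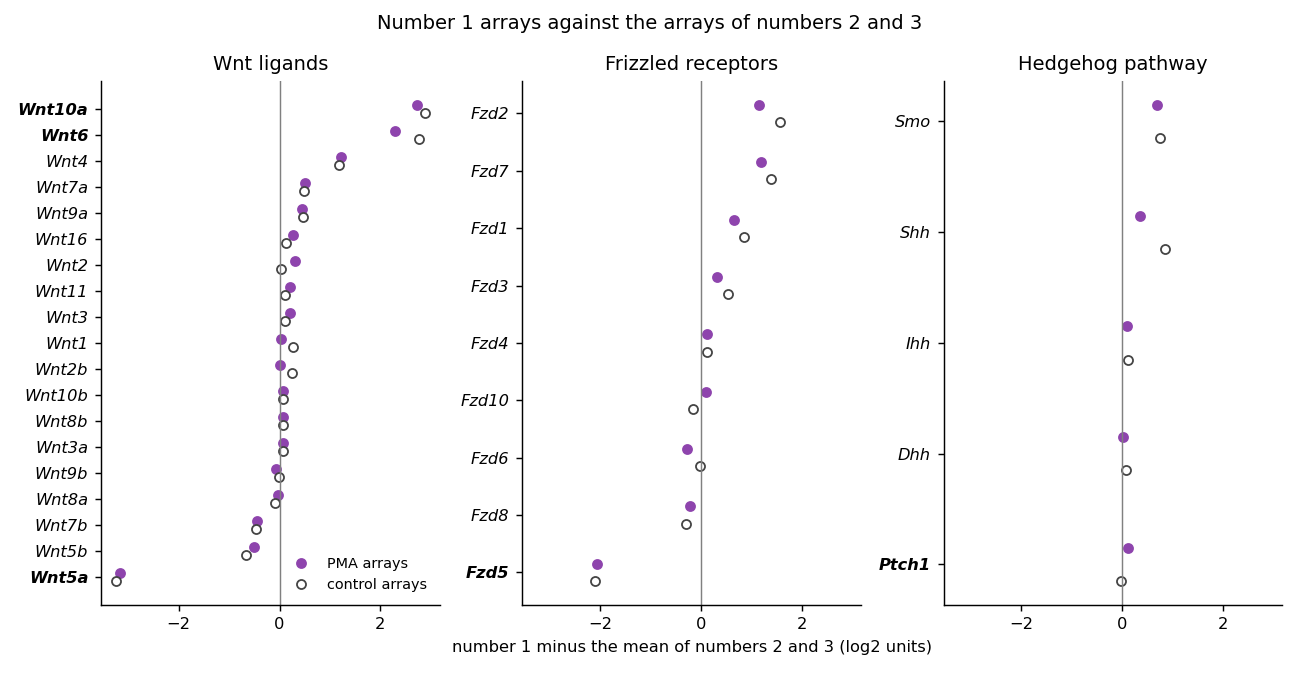
Number 1 minus the mean of numbers 2 and 3 (x axis, log2 units) for the measured Wnt ligands and Frizzled receptors and 5 Hedgehog pathway genes, with filled points for PMA arrays and open points for control arrays and the 5 genes in bold. Wnt5a and Fzd5 lie at the low end of their families, Wnt10a and Wnt6 at the high end of theirs, and the PMA and control points lie close together for Wnt5a, Fzd5 and Wnt10a and further apart, at 2.30 and 2.76, for Wnt6.

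Of 18 listed Hedgehog pathway genes, 6 were measured, and 0 passed the adjusted limma test for PMA (0 at an unadjusted p under 0.05, with and without the block). The largest PMA difference was that of Ptch1 at 0.15. Smo, the signal transducer that Ptch1 holds back, differed by 0.072, and the ligands Dhh, Shh and Ihh by 0.070, 0.015 and -0.033. Both arrays of number 1 had more Smo signal, at 9.93 in PMA 1 and 9.89 in control 1, against 9.10 to 9.29 in the other 4 arrays, a difference of 0.72 (SE 0.070, adjusted p = 1.23e-05 by limma). Shh was higher by 0.61 (SE 0.12, adjusted p = 0.00242 by limma), and its second probe set gave 0.60. Both passed under median centring and quantile normalization too, but without control 1 only 1 of the 6 Hedgehog genes passed. Ihh and the Dhh probe set with the highest mean did not pass. A second probe set of Dhh, with suffix s, differed by 0.41 and did pass (adjusted p = 0.00103 by limma). Ptch1 stayed level between numbers. At 1 probe set a gene, 2 of the 5 other Hedgehog genes were called, Smo and Shh, both higher in number 1. Of all probe sets 27.5% were called higher and 14.1% lower, so nothing is read from that count.

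Of 20 listed intracellular components and targets of Wnt signalling, 2 were measured. Cd44, a hyaluronan receptor and Wnt target, stood at 9.64, 9.67 and 9.55 in PMA 1, 2 and 3, against 9.40, 9.17 and 9.60 in control 1, 2 and 3, a difference of 0.23 (SE 0.12) that did not pass, also with the block (95% interval 0.0090 to 0.46, unadjusted). Jag1, a Notch ligand and Wnt target, differed by 0.013 with PMA and was lower in number 1 by a difference of -2.08 (SE 0.095, adjusted p = 3.31e-08 by limma). Of 20 listed secretion factors and extracellular inhibitors 0 were measured. So neither the enzymes that lipidate Wnt proteins nor standard readouts such as Axin2, Lef1 or Gli1 could be set beside the ligands. A gene counts as measured only where a probe set was named for it, and 283 of the 1246 probe sets had no gene name.

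Of the 12 glypicans, syndecans and heparan sulfate endosulfatases, which bind or release both kinds of ligand, all had a probe set and 0 passed the adjusted limma test for PMA (0 at an unadjusted p under 0.05, with and without the block). Gpc2 at -0.16 and Gpc1 at -0.16 had the largest PMA differences. Between the numbers 5 of the 12 measured passed (2 without control 1, 3 without PMA 1 or without control 3), all higher in number 1. Of all probe sets 27.5% were called higher and 14.1% lower, 41.7% in either direction, so nothing is read from that count. The list's median was 0.14, beside 0.096 over all named genes. Sdc4, a syndecan, rose by 1.07 (adjusted p = 3.04e-07 by limma) and Gpc1 by 0.56 (adjusted p = 0.000645 by limma). The others, named after their values were seen, were Sulf2 at 0.34, Sdc1 at 0.23 and Gpc5 at 0.22, of which Sdc1 and Gpc5 did not pass with the array medians centred (adjusted p = 0.0859 and 0.0634 by limma) or with quantile normalization (adjusted p = 0.480 and 0.139 by limma). Gpc3, at -0.15 as deposited and not called, passed as lower in number 1 under both, at -0.19 each (adjusted p = 0.0486 centred and 0.0381 with quantile normalization, by limma). Over all probe sets 519 passed in this contrast, 66.1% of them higher in number 1, and with quantile normalization 510 passed, 54.5% of them higher.

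The genes whose values ran most like each member over the 6 arrays were found by Pearson's r among the other 908 named genes, 1 probe set a gene. This is a description over 6 arrays that fall into 2 sets. An r near 1 mainly says that a gene parted number 1 from the rest in the same direction, and not by how much. Naa60, 1 of the genes nearest to Wnt10a, differed by 0.63 between number 1 and the rest, against 2.80 for Wnt10a. For Wnt5a these were the proteoglycan gene Acan (0.9998), Fzd5 (0.9994) and the chemokine receptor Ccr7 (0.9988), and for Fzd5 they were Wnt5a, the chemokine Cxcl2 (0.9989) and Acan (0.9988). For Wnt6 they were the growth factor Csf1 (0.9988), Galc (0.9985) and Uap1l1 (0.9982), and for Wnt10a they were Naa60 (0.9994), Chst14 (0.9992) and the heparan sulfate polymerase Ext1 (0.9988). An r over 0.99 was reached by 24 genes with Wnt5a, 27 with Fzd5, 42 with Wnt6 and 45 with Wnt10a. With Ptch1, which did not part the numbers, 0 genes reached it, and the nearest were Il4ra (0.90), Klrg1 (0.88) and Gdf6 (0.88).

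The lung epithelial marker Sftpa1 was higher in number 1 by 0.52 (SE 0.069, adjusted p = 0.000117 by limma), while Sftpd at 0.13 did not pass. Markers of other cell types also differed between the numbers. Of 13 mesenchymal and pericyte markers 6 were measured, and their mean level was 6.04 and 6.18 in the number 1 arrays, against 5.54 to 5.83 in the other 4. Cspg4 was higher in number 1 by 2.90 and Vcan by 1.15, while Dcn had a difference of -2.31, and each passed by limma. The others, named after their values were seen, were Pdgfrb at 0.78, which passed, and Pdgfra at 0.20 and Lum at 0.074, which did not. Of 8 endothelial markers 4 were measured, with a mean level of 5.82 and 5.83 in number 1, against 6.67 to 6.80 in the other 4 arrays. Pecam1 at -1.37, Vcam1 at -1.31 and Sele at -1.13 were lower in number 1. Icam2, named after its value was seen, was at 0.061 and did not pass. Of 11 leukocyte markers 3 were measured, with a mean level of 3.95 and 4.23 in number 1, against 4.91 to 5.01 in the other 4. Of the 3, Mrc1 alone passed, at -2.74, while Adgre1 at 0.16 and Siglech at -0.030, named after their values were seen, did not. Ptprc, Col1a1 and Cdh5, which define these cell types, had no probe set named here. The part of these markers in the differences of Wnt5a, Fzd5, Wnt6 and Wnt10a was not tested.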

How the data were processed

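The deposited table held 1246 probe sets on 6 arrays, with values on the log2 scale that the authors made with RMA, per the submitters' processing notes. RNA was extracted with Trizol and biotin-labelled, per the labels' protocols. The RMA version, the array design and any filtering were not given in the sources used here. The between-array normalization of RMA can hide a change common to all transcripts. In the deposited probe sets the quartiles of the arrays were close but not equal, with upper quartiles of 7.86 to 8.05.

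Probe sets were named by the RefSeq accession in their own name, without versions, through the RefSeq gene table of GRCm38.p6. Of them 963 were named, covering 909 genes, and 283 were not. Tests used lmFit and eBayes of limma 3.58.1 (R 4.3.3) on the values as deposited, with Benjamini-Hochberg adjustment over all probe sets and a threshold of 0.05. SE is limma's moderated standard error. The contrast of number 1 with numbers 2 and 3 had PMA as a term. The number of arrays limits the precision.

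Arrays of the same number deviated together from their group means across probe sets (correlations 0.956, 0.815 and 0.912, all over 0.1). On that rule the numbers were treated as pairs in a blocked fit. Deviations within a group cancel out by construction, so the difference of number 1 enters each correlation. With number 1 set aside, the differences of number 2 minus number 3 in both groups correlated at 0.041, under 0.1. A pairing of numbers 2 and 3 was therefore not shown, and a fit with 1 term for number 1 was run beside the block. The fits were first tested on simulated data.

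Members, lists and alternatives were chosen with earlier results of these data known. The text names the 5 members. It names all measured genes of a pathway list with 6 or fewer besides the members, otherwise the 2 with the largest PMA difference and the 2 with the largest difference of number 1. It names the 3 nearest genes by r, the lung markers, and markers that differed by over 1 log2 unit between numbers. Others are said to be named after their values were seen. The values of 1 measured gene are not reported here.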

Additional observations from a re-analysis of the deposited data

How the results depend on the processing

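For PMA minus control, limma called 0 probe sets under each of 14 alternatives, and the adjusted p of the 5 genes ran from 0.964 to 1.000. The replicate block changed no call, and 0 probe sets passed with it. Leaving out 1 array unbalances the numbers and moved the differences widely, to between -1.05 and 1.08 for Wnt5a, -0.75 and 0.94 for Wnt6, -0.999 and 0.87 for Wnt10a, -0.65 and 0.73 for Fzd5, and 0.12 and 0.19 for Ptch1. The median PMA difference of the lists then ran from -0.0086 to 0.14 for receptors, -0.034 to 0.080 for ligands, -0.21 to 0.47 for the 2 intracellular components and targets, -0.062 to 0.12 for the Hedgehog genes and -0.039 to 0.033 for the glypicans, syndecans and endosulfatases. For number 1 minus numbers 2 and 3, the difference of Wnt6 ran from 2.30 without control 1 to 2.76 without PMA 1, which are also its values in PMA arrays and in control arrays alone. Leaving out 1 array, the Hedgehog genes had 1 (without control 1) to 2 calls. The glypican list had 2 (without control 1) to 6 calls with a median of 0.10 to 0.22, 2 calls in PMA arrays alone, and a median of 0.22 in control arrays alone. Quantile normalization gave a PMA difference of -0.015 for Wnt5a, number 1 differences of 2.69 for Wnt10a and -2.20 for Fzd5, and number 1 medians of 0.048 for ligands, -0.0096 for receptors and 0.065 for the glypican list. With the dimmest 25% of probe sets left out, the medians were 0.21 for receptors and 0.23 for the glypican list. The interaction of Fzd5 was -0.0053 with array medians centred, and the count of interaction calls was 0 with quantile normalization and 0 with a mean-variance trend, where limma had 80 and 105 at an unadjusted p under 0.05. Of the 15 nearest genes by r, 9 remained with medians centred and 7 with quantile normalization, both alternatives chosen after seeing the data. Except for the lost or moved values given here, the cause of which was not tested, the number 1 differences of Wnt5a, Fzd5, Wnt6 and Wnt10a kept their direction under all alternatives run. No background probe sets were at hand, so signal over background is unknown.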
